A study of Mus musculus with 6 samples.

Results

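Epidermal differentiation and cornified envelope genes are a set of 33 genes of keratinocytes. Some are expressed in the basal layer of the skin. Others are switched on as cells leave it and turn into the dead, cross-linked cells of the surface. Members were taken by name, as every probe set of the array table that the platform annotation gives a single symbol from the list. All 33 were present, on 50 of the 45037 probe sets tested and among 18193 genes in all. Keratins and desmosomal genes were not part of the set.

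The arrays held lymphatic endothelial cells (LECs), which line lymphatic vessels, from 2 sources with 3 samples each. The control group came from the mammary skin of healthy balb-c/nude mice. The other group held tumor-associated LECs from subcutaneous xenografts excised 8 weeks after injection of MDA-MB-435, a human cancer line that was once taken for breast carcinoma and has since been assigned to melanoma. Both kinds were cut by laser capture microdissection from sections stained briefly for LYVE-1, which binds hyaluronan and marks lymphatic endothelium, and their RNA went through 1 round of Ribo-SPIA amplification. Nude mice lack mature T cells and make defective hair because of a mutation in Foxn1, and the labels give neither age nor sex nor whether each replicate was a separate animal. They name the strain for the healthy-skin samples only, so a strain difference between the groups cannot be told apart from the tumour. The source tissue also differed, mammary skin against xenografts, and cannot be told apart from the tumour either. If replicates shared an animal, the p-values would measure only the spread between these samples.

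The epidermis renews itself from a basal layer held to the basement membrane. Cells that move up express differentiation keratins and secreted suprabasal proteins, and in the granular layer they make the cornified envelope, where transglutaminases cross-link precursors such as loricrin and involucrin under the plasma membrane. Lipids made by lipoxygenases and loaded by ABC transporters seal the space between the dead cells, and kallikrein proteases cut the junctions so that old cells are shed. Endothelial cells are not known to build this structure.

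Promoters are shown for 5 members because the results below turn on them. Sbsn, Dmkn and Krtdap follow each other on chromosome 7 and were all lower in the tumour samples, while Lor and Ivl, precursors from the same gene complex on chromosome 3, differed in how they behaved. Each line gives the 150 bases before the RefSeq start, 5′ to 3′ on the gene's strand, from RefSeq on build GRCm38.p6. Capitals mark matches to the AP-1 motif TGANTCA and to the TATA box TATAAA. The windows are chr7:30751321-30751470 (plus strand) for Sbsn, chr7:30763606-30763755 (plus) for the most upstream start of Dmkn, chr7:30787755-30787904 (plus) for Krtdap, chr3:92083143-92083292 (minus) for Lor and chr3:92573736-92573885 (minus) for Ivl.
Sbsn: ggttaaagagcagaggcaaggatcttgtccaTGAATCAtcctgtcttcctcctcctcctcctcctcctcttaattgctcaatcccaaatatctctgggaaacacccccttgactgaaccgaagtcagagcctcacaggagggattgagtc
Dmkn: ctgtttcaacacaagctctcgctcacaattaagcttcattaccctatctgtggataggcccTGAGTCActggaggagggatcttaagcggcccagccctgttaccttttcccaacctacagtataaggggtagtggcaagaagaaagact
Krtdap: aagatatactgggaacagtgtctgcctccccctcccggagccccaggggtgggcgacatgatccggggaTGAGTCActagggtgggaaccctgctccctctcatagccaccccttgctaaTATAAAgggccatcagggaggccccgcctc
Lor: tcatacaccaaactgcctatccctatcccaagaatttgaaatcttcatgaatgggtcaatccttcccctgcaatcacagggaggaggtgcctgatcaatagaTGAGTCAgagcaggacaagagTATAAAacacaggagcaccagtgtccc
Ivl: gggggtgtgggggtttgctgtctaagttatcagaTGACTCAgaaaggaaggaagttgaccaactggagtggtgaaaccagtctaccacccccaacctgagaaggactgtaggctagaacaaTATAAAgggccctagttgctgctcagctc

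Each of the 5 stretches held an AP-1 match, which began 119 bases before the start in Sbsn, 89 in Dmkn, 81 in Krtdap, 48 in Lor and 116 in Ivl. A TATA box began 30 bases before the start in Krtdap, 27 in Lor and 29 in Ivl. RefSeq windows were found for 26 of the 33 members. Over the 250 bases before the start, on both strands, AP-1 matches lay in windows of 9 of these 26 genes and in 6.75% of all 32851 windows. The other 4 motifs searched were TATAAA (10 of 26 genes, 12.4% of windows), TTGCNNAA for C/EBP factors (6 of 26, 9.56%), CCNCNCCC for KLF factors (16 of 26, 45.9%) and AACCNGTT for grainyhead factors (1 of 26, 1.79%). Each motif was counted by itself, also where its match overlapped another's. A member counted once if any of its windows held the motif (30 windows for 26 genes), whereas the percentages are per window. A match is only a run of letters, since no binding was measured.

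Across the set, 14 of 33 members had a log2 signal lower by 1 or more in the tumour samples, and they came from the regulators, the basal and spinous layers, the secreted suprabasal proteins, the envelope precursors and the genes of proteolysis and shedding. None was a transglutaminase or lipid barrier gene. Limma, a linear model that shares variance information across probe sets, called none of the 50 member probe sets at a Benjamini-Hochberg adjusted p under 0.05, against 2 of all 45037 (0.00444%). At an unadjusted p under 0.05, 9 of 33 members were lower and none was higher, against 4.28% of all genes lower and 3.22% higher. In 10 of 33 members every tumour value lay below every healthy-skin value, as in 5.36% of all genes, and in 1, Evpl, every tumour value lay above, as in 6.58%. The 14 members at a log2 difference of -1 or less compare with 8% of all genes, and no member reached 1 or more, against 4.85%. Differences below 0 were found for 22 of 33 members and 42.7% of all genes. The median log2 difference, tumour minus healthy skin, was -0.10 over the members and 0.08 over all genes, while the members' mean was -0.80. Over the 19 members brighter than the median gene the median was -1.04. Brightness was the mean over all 6 arrays, so a member could count as bright through its healthy-skin arrays alone. The median over those 19 is therefore not independent of the difference between the groups. In these samples, fewer epidermal cells in a capture and less RNA per cell cannot be told apart.

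**Figure D1:**
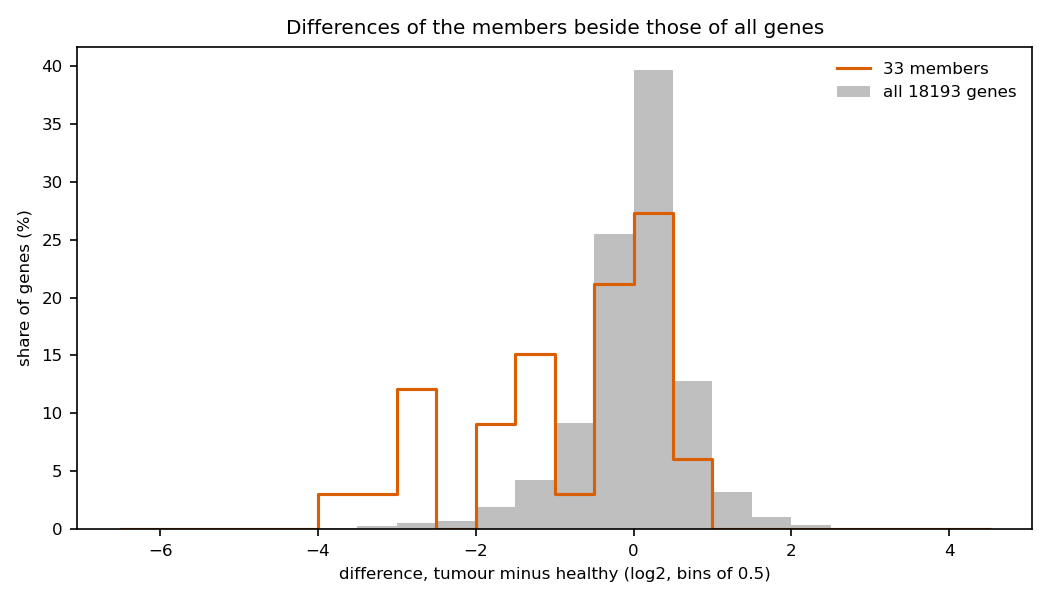
The plot gives the share of genes (%, vertical axis) by log2 difference, tumour minus healthy skin (horizontal axis, bins of 0.5), for all 18193 genes as grey bars and for the 33 members as an orange line. The members have a main peak near 0 and spread from there to lower values, with 14 members and 8% of all genes at -1 or less.

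**Figure D2:**
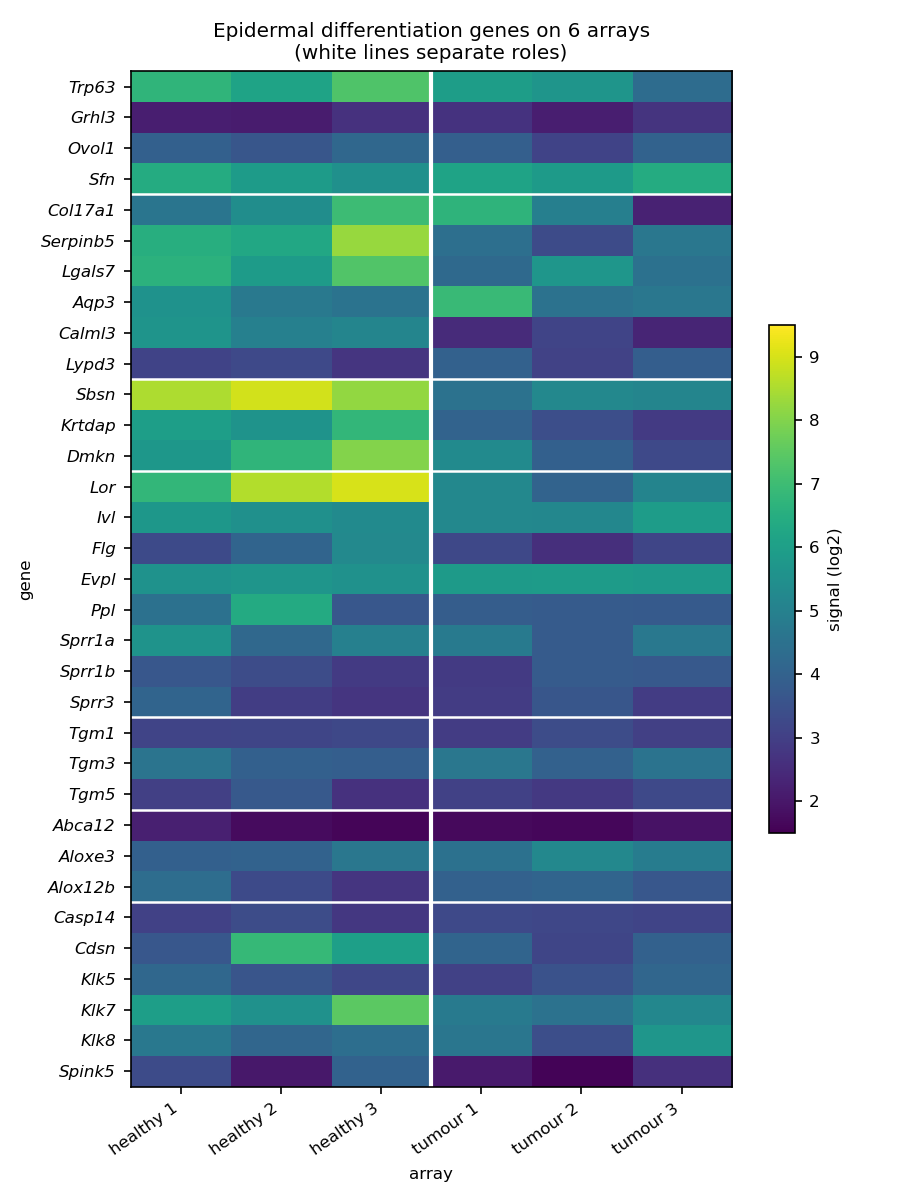
The heat map gives the log2 signal (colour) of the representative probe set of each of the 33 members (rows, grouped by role) on each of the 6 arrays (columns, 3 healthy skin and 3 tumour). Sbsn, Krtdap, Dmkn, Lor and Serpinb5 are brighter on the healthy-skin arrays, while the transglutaminase and lipid barrier genes differ little between the groups.

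Among the regulators, Trp63 encodes p63, the transcription factor that sets up stratified epithelium and marks basal keratinocytes. Its brightest probe set had log2 signals of 6.73, 6.15 and 7.30 in healthy-skin replicates 1, 2 and 3 and 5.96, 5.68 and 4.32 in tumour replicates 1, 2 and 3. The groups were separated by only 0.19, and the log2 difference was -1.41 with a standard error of 0.52 (limma adjusted p = 0.73). Its other probe sets differed by -1.26, -0.47 and 0.14 with overlapping groups. Sfn, which encodes the cell cycle inhibitor 14-3-3 sigma, had 6.43, 5.90 and 5.51 in healthy skin and 6.13, 5.85 and 6.42 in tumours, so its values overlapped fully. The transcription factor genes Grhl3 and Ovol1, which promote terminal differentiation, differed by 0.21 and -0.25, and a second Ovol1 probe set by -0.41. Grhl3 was not above background on any array, so its difference carries no information on level.

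The 6 genes of the basal and spinous layers did not move together. Calml3, a calmodulin-like protein of differentiating epithelium, had 5.65, 5.0 and 5.15 in healthy skin and 2.47, 3.13 and 2.33 in tumours, where it was not above background on any array. Healthy skin was therefore at least 3.18-fold higher, taking each tumour array at its background, and the measured log2 difference was -2.62 (standard error 0.34, limma adjusted p = 0.172). Serpinb5, which encodes the epithelial serpin maspin, had 6.51, 6.31 and 8.25 in healthy skin and 4.42, 3.34 and 4.66 in tumours, a log2 difference of -2.88 (standard error 0.62, limma adjusted p = 0.474). Its other probe sets differed by -3.16, -1.47 and -0.87, and 3 of all 4 had groups that did not overlap. Lgals7, the keratinocyte lectin galectin-7, had 6.64, 5.90 and 7.34 against 4.23, 5.72 and 4.49, and its groups were separated by 0.18 (log2 difference -1.82, limma adjusted p = 0.639).

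Col17a1 and Aqp3 instead followed single samples. Col17a1, the hemidesmosomal collagen that anchors basal cells, had 4.62, 5.43 and 6.98 in healthy skin and 6.69, 4.95 and 2.27 in tumours. Tumour replicate 1 thus lay near the highest healthy-skin value and replicate 3 was not above background, and the difference was -1.04 with a standard error of 1.14. Aqp3, the glycerol and water channel of keratinocytes, had 5.59, 4.73 and 4.55 against 6.93, 4.53 and 4.67 on its brightest probe set. On a second probe set it had 7.66 and 8.90 in replicate 1 of healthy skin and of tumours and between 1.26 and 2.03 on the other 4 arrays. Replicate 1 was therefore the highest sample of each group on these probe sets, with differences of 0.42 and 0.47. On the remaining ones, which differed by 0.08 and 0.12, tumour replicate 3 was the highest tumour sample. Lypd3, a surface protein of suprabasal cells, differed by 0.61 and was above background on 1 array of each group.

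The secreted suprabasal proteins had the lowest median difference of the 7 roles (-2.69), and all 3 had groups that did not overlap. Sbsn encodes suprabasin, a secreted protein of suprabasal keratinocytes. It had 8.52, 8.94 and 8.19 in healthy skin and 4.52, 5.23 and 5.14 in tumours, which put every tumour sample at least 2.96 below every healthy-skin sample. Its log2 difference was -3.59 (95% interval -4.40 to -2.78, standard error 0.34), a level 12.0-fold higher in healthy skin, with a limma adjusted p of 0.0541. A second probe set had 8.97, 8.78 and 7.57 against 4.06, 3.68 and 3.85 and differed by -4.58 (limma adjusted p = 0.0541), whereas the third differed by only -0.67 with overlapping groups. Sbsn passed the threshold when dim probe sets were left out (limma adjusted p = 0.0357) and with array weights (0.0248), and its adjusted p over all alternatives ranged from 0.0248 to 0.457. Krtdap encodes keratinocyte differentiation-associated protein, a small secreted peptide. It had 5.99, 5.60 and 6.81 in healthy skin and 4.06, 3.41 and 2.85 in tumours, where only replicate 1 was above background, and differed by -2.69 (standard error 0.45, limma adjusted p = 0.312). Dmkn, which encodes dermokine, had 5.75, 6.74 and 8.00 against 5.34, 3.95 and 3.26, with groups separated by 0.41 and a log2 difference of -2.65 (standard error 0.73, limma adjusted p = 0.594).

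**Figure D3:**
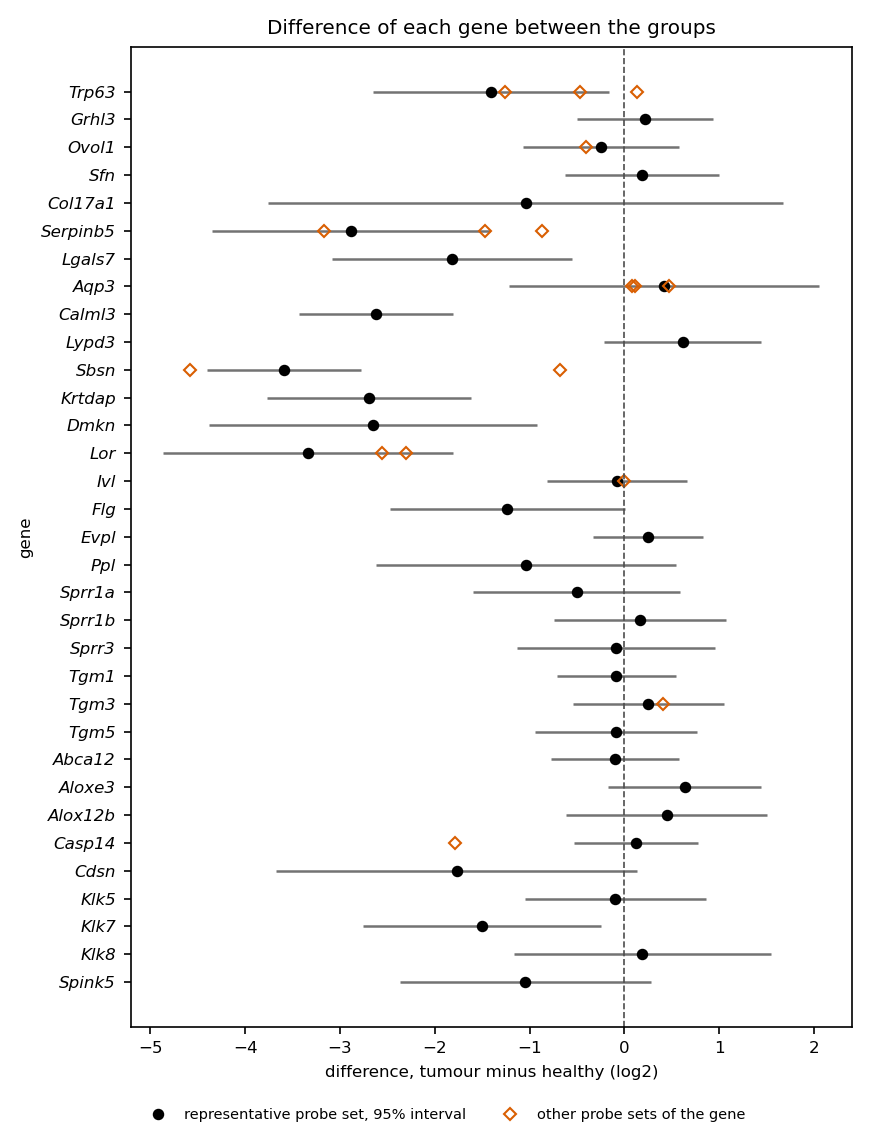
Each row is a member. The black point is the log2 difference, tumour minus healthy skin, of its representative probe set with the 95% interval from limma (n = 3 arrays per group), and orange diamonds are the gene's other probe sets. Sbsn, Lor, Serpinb5, Krtdap, Dmkn and Calml3 lie at -2.62 or lower, while most transglutaminase, lipid barrier and small proline-rich genes lie near 0. Some other probe sets fall far from their representatives, as for Sbsn, Serpinb5, Trp63 and Casp14.

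Envelope precursors, the proteins that become cross-linked, were divided. Lor encodes loricrin, a glycine-rich protein that makes up most of the mature envelope. Its brightest probe set had 6.80, 8.59 and 9.02 in healthy skin and 5.23, 4.06 and 5.12 in tumours, a log2 difference of -3.34 (95% interval -4.86 to -1.81, limma adjusted p = 0.368). Its other probe sets differed by -2.30 and -2.56, but their groups overlapped because healthy-skin replicate 1 was low (3.82 and 2.26, against 7.85 and 7.34 in replicate 3). Flg, the filaggrin precursor that bundles keratin filaments, had 3.31, 4.09 and 5.25 in healthy skin and 3.23, 2.56 and 3.17 in tumours. It was above background on 2 healthy-skin arrays and on no tumour array, so healthy skin was at least 1.54-fold higher, with a measured log2 difference of -1.23 (limma adjusted p = 0.786). Ppl, the plakin periplakin, had 4.49, 6.40 and 3.67 against 3.87, 3.81 and 3.77. Its difference of -1.04 thus rested on healthy-skin replicate 2 and was -0.26 without it.

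Ivl, which encodes involucrin, an early scaffold of the envelope, differed by -0.08 (95% interval -0.82 to 0.67), and by -0.00 on its second probe set. Its values were 5.73, 5.51 and 5.33 in healthy skin and 5.24, 5.19 and 5.91 in tumours, above background on all 6 arrays. Evpl, the partner plakin envoplakin, had 5.59, 5.66 and 5.53 against 5.85, 5.88 and 5.81. It was the 1 member with every tumour value above every healthy-skin value, by a log2 difference of 0.25 (limma adjusted p = 0.895). The small proline-rich genes Sprr1a, Sprr1b and Sprr3, whose products bridge other precursors, differed by -0.50, 0.17 and -0.09, and the last pair were above background on 1 array of each group only.

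The enzymes that assemble the envelope and its lipids did not separate the groups. Tgm1, Tgm3 and Tgm5, the epidermal transglutaminases, differed by -0.08, 0.25 and -0.09, with 95% intervals of -0.71 to 0.54, -0.54 to 1.05 and -0.94 to 0.76. Tgm1 and Tgm5 were above background on 1 healthy-skin array and on no tumour array, whereas Tgm3 was above background on all 6 and differed by 0.40 on its second probe set. Aloxe3 and Alox12b, the paired lipoxygenases of the lipid barrier, had differences of 0.64 and 0.45 with overlapping groups (95% intervals -0.17 to 1.45 and -0.62 to 1.51). The lipid transporter gene Abca12 was not above background on any array.

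Among the 6 genes of proteolysis and shedding, Klk7 alone had representative values that did not overlap. This chymotrypsin-like kallikrein, which degrades corneodesmosomes, had 5.97, 5.55 and 7.47 in healthy skin and 4.78, 4.51 and 5.19 in tumours, with groups separated by 0.36 (log2 difference -1.50, standard error 0.53, limma adjusted p = 0.713). The related kallikrein genes Klk5 and Klk8 differed by -0.09 and 0.19 with overlapping values. Cdsn, the corneodesmosome adhesion protein that these proteases cut, had 3.68, 6.87 and 6.02 against 4.09, 3.18 and 3.99. Healthy-skin replicate 1 lay within the tumour range, and the difference was -1.77 (limma adjusted p = 0.804). Casp14, the caspase of cornification that processes filaggrin, had 4.10, 1.73 and 5.26 against 2.15, 1.83 and 1.75 on its dimmer probe set (log2 difference -1.79). On its brighter probe set the values lay between 2.80 and 3.37 on all 6 arrays and the difference was 0.12. That probe set was above background on 1 healthy-skin array and no tumour array, so its difference carries little information on level. The dimmer probe set was above background on 2 healthy-skin arrays and no tumour array. Spink5, the kallikrein inhibitor LEKTI, differed by -1.05 (limma adjusted p = 0.848) and was above background on 1 healthy-skin array and no tumour array.

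Members that lie side by side in the genome could be compared in RefSeq gene order. On chromosome 7, Sbsn, Dmkn and Krtdap are consecutive protein-coding genes, and each was lower in tumours without overlap. In the run of 4 kallikrein genes from Klk8 to Klk5, also on chromosome 7, Klk7 alone had groups that did not overlap. The non-member Klk6 differed by 0.17. The epidermal differentiation complex on chromosome 3 holds 47 protein-coding genes from Lor to Flg, of which 32 had a probe set. Of these 32, 22 had negative differences (42.7% of all genes did) and 8 had every tumour value below every healthy-skin value (5.36% of all genes), with a median difference of -0.20. Besides the end genes Lor and Flg, these 8 comprised Crct1 and 5 late cornified envelope genes, Lce1a1, Lce1b, Lce1a2, Lce1c and Lce1f, all 6 named after their values were seen. Between Lor and the Lce1 genes, the measured genes from Prr9 to Smcp, which include Ivl and the small proline-rich genes, differed by between -0.50 and 0.44. Of these, Prr9, Sprr2d, Sprr2f, Sprr2i and Smcp were not above background on any array. Lce1c had 2.38, 6.37 and 6.78 in healthy skin and 1.71, 1.63 and 1.79 in tumours, where it was not above background, so that healthy skin was at least 2.99-fold higher. As with Lor, its lowest healthy-skin value was in replicate 1. Lce1 genes are near-identical copies, so their probe sets may share signal.

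**Figure D4:**
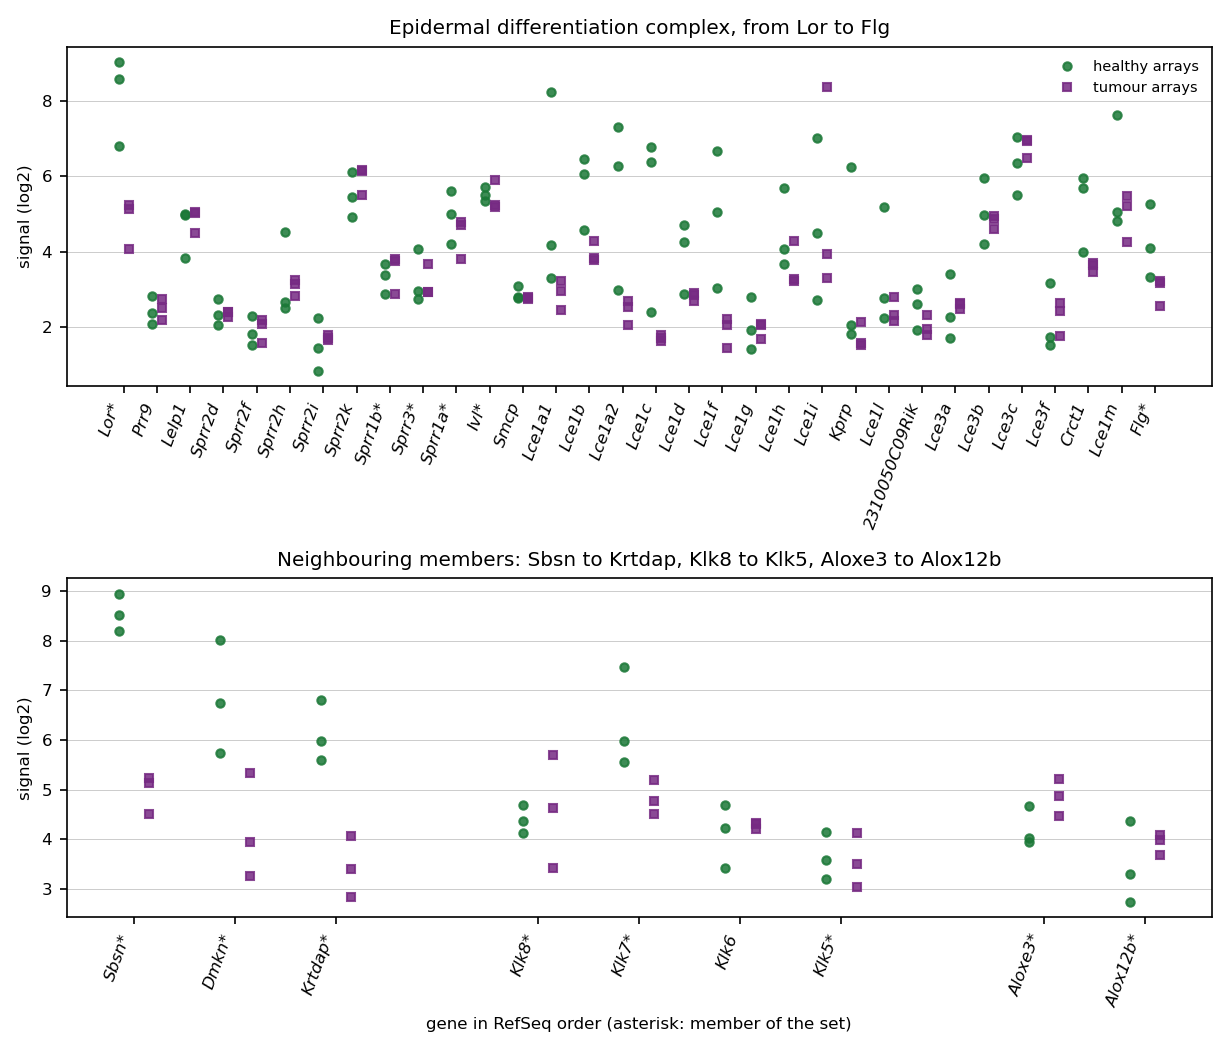
Both panels give log2 signal (vertical axis) on every array for measured genes in RefSeq order (horizontal axis), green circles for the 3 healthy-skin arrays and purple squares for the 3 tumour arrays, with an asterisk after each member. The upper panel runs from Lor to Flg and shows separated groups at Lor and within the Lce1 genes but mixed symbols from Prr9 to Smcp. The lower panel shows Sbsn, Dmkn and Krtdap with the circles above the squares, and of the kallikreins Klk7 alone.

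AP-1 matches were set beside this division as a description. Of the 10 members whose tumour values all lay below healthy skin, 8 had a RefSeq window, and 6 of these held the motif, namely Sbsn, Dmkn, Krtdap, Lor, Flg and Serpinb5. Klk7 and Lgals7 held none in their windows. Among the other 18 members with a window, whose groups overlapped, Ivl, Sprr1a and Sprr1b held it. The KLF motif was in 4 of the 8 and 12 of the other 18, the C/EBP motif in 3 and 3, the TATA box in 3 and 7, and the grainyhead motif in 0 and 1. The division was made from these same arrays. Sbsn, Dmkn and Krtdap are neighbours, and Lor and Flg lie in the same complex. The share with AP-1 over all genes without overlap was not computed, and a link between AP-1 and the division was not tested.

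Other genes of the same programme were read from a list of 96 symbols, of which 80 had a probe set. None passed the limma threshold. At an unadjusted limma p under 0.05, 17 of 80 were lower in tumours and none was higher, against 4.28% and 3.22% of all genes. In 20 of 80 every tumour value lay below every healthy-skin value (against 5.36% of all genes), and the median log2 difference was -0.15. Scel, the envelope protein sciellin, had 5.77, 4.04 and 6.40 in healthy skin and 2.50, 2.34 and 2.65 in tumours, where it was not above background, so healthy skin was at least 3.50-fold higher. Blmh, a protease that completes filaggrin breakdown, had 8.53 ± 0.35 in healthy skin and 6.26 ± 0.93 in tumours (SD, n = 3 arrays), a difference of -2.27 (limma adjusted p = 0.491). Ly6g6c, Calm4 and Cyp4f39, the other genes with the smallest p on the lower side, differed by -3.18, -1.90 and -1.47. On the higher side the smallest p belonged to Elovl1, a fatty acid elongase (difference 0.90, limma adjusted p = 0.813), then Klk10, Lce3c, Sprr2k and Tchhl1 with 0.26 to 0.50.

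Brightness set how much could be seen. A signal was taken as above background when it exceeded 95% of the array's 27 bacterial control signals, a cutoff that lay between 2.96 and 3.91 (log2). By this measure 24 of 33 members were above background on at least 2 healthy-skin arrays, against 11508 of all 18193 genes. On at least 2 tumour arrays 21 members were, against 10800 genes, and on all 6 arrays 13 members were, against 7793. Among the 19 members with a mean over all arrays above that of the median gene (4.03), 11 had a difference of -1 or less, against 12.4% of the 9096 genes so chosen, and 8 had groups without overlap, against 7.24%. Among the 14 dimmer members, 3 had a difference of -1 or less, against 3.59% of the 9097 dimmer genes, and 2 had groups without overlap, against 3.47%. A gene could count as bright through its healthy-skin arrays alone, as Krtdap did with means of 6.13 in healthy skin and 3.44 in tumours. These counts are therefore not independent of the difference between the groups. For members near background, such as Tgm1, Tgm5, Sprr3 and Abca12, a lower level in tumours was not detectable.

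The samples of each group were not alike. Healthy-skin replicate 3 had the highest value of the 6 arrays for 11 of 33 members, against 2438 of all 18193 genes. It was highest for 8 of the 10 members with every tumour value below healthy skin, where only a healthy-skin array could be highest. Averaged over all 33 members, the log2 signal was 4.76, 4.73 and 4.96 in healthy skin and 4.18, 3.86 and 4.0 in tumours. For the 6 basal and spinous genes the tumour values were 4.79, 4.13 and 3.72, so tumour replicate 1 was the highest of them. The keratins of epidermis, markers of the same cells and not members, were lower in tumours for 7 of 9 genes, against 42.7% of all genes. Their mean was 6.49, 6.58 and 6.96 in healthy skin against 5.68, 4.93 and 4.19, and Krt2 was not above background on any array. Krt10, a suprabasal keratin, differed by -4.91 and Krt1 by -2.37. The basal keratin Krt14 had 9.23 in tumour replicate 1, within the healthy-skin range of 8.52 to 9.54, but 6.89 and 3.92 in replicates 2 and 3, and Krt5 had 10.53, 9.02 and 6.50. Krt5, Krt14 and Col17a1 thus had the same order over the tumour samples, whereas the basal keratin Krt15 had 5.39, 6.90 and 4.48 and was highest in replicate 2.

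**Figure D5:**
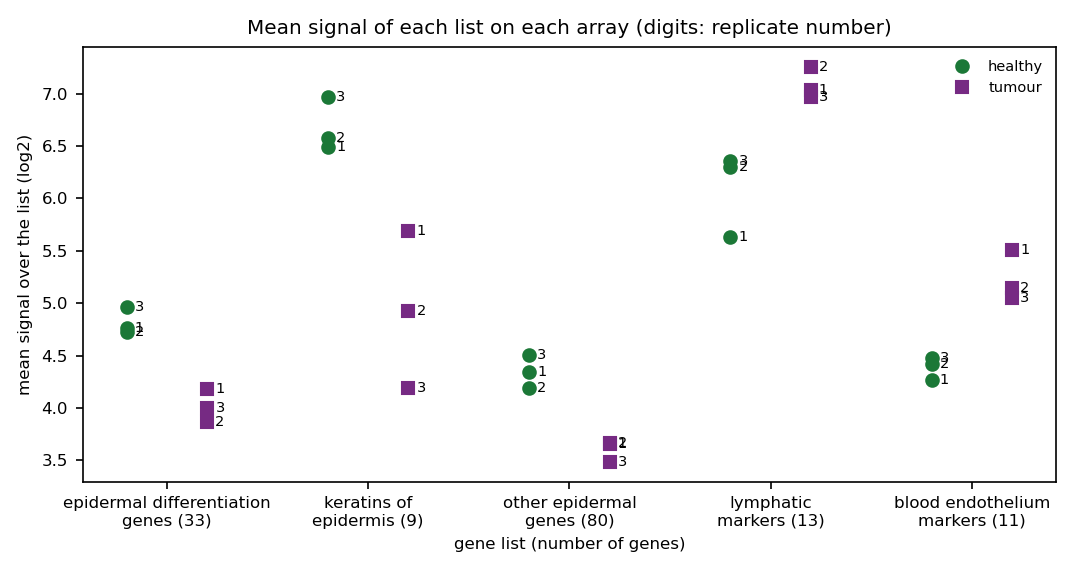
Points give the mean log2 signal (vertical axis) over each gene list (horizontal axis, number of genes in brackets) on each array, green circles for healthy skin and purple squares for tumours, with the replicate number beside each. All 3 epidermal lists lie lower on the tumour arrays and both endothelial lists lie higher, with no overlap between the groups in any of the 5.

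Endothelial markers were on average higher on the tumour arrays. The 13 measured lymphatic markers averaged 5.63, 6.30 and 6.35 in healthy skin and 7.03, 7.26 and 6.97 in tumours. Of them, 12 of 13 were higher, as were 10432 of all 18193 genes. The 11 blood endothelial markers averaged 4.27, 4.42 and 4.47 against 5.51, 5.14 and 5.05, with 9 of 11 higher. Cd34 was lower without overlap, by -1.43, and Flt1, Sele and Vwf differed by 0.17, -0.01 and 0.22. Lyve1, the stained protein's gene, had 3.21, 7.58 and 6.81 in healthy skin, where replicate 1 was below background, and 9.64, 9.41 and 9.65 in tumours. Of the 13 lymphatic markers, 9 had their lowest healthy-skin value in replicate 1, among them Prox1, Pdpn, Flt4 and Pecam1, while Sox18, Stab2 and Tbx1 had their highest there. The 5 measured sebocyte markers averaged 5.54, 5.52 and 5.68 against 3.05, 4.63 and 3.06. Mammary luminal markers were at 3.37 ± 0.23 and 3.32 ± 0.01, hair follicle markers at 4.16 ± 0.27 and 3.88 ± 0.10, and myoepithelial markers, which share Krt5 and Krt14, at 6.61 ± 0.40 and 6.21 ± 0.93 (SD, n = 3 arrays). Melanocyte (3.40 ± 0.12 and 3.51 ± 0.24), fibroblast (8.76 ± 1.18 and 8.11 ± 1.93), adipocyte (4.02 ± 0.16 and 3.99 ± 0.50) and immune marker lists had a tumour SD above the difference between the groups. The immune lists were Langerhans and T cell genes at 5.20 ± 0.16 and 4.75 ± 1.09 and macrophage genes at 5.84 ± 0.23 and 6.64 ± 1.19, while pericyte genes had 5.66 ± 0.09 and 6.26 ± 0.87. Hybridization-control signal was 11.96, 10.97 and 10.99 in healthy skin and 12.30, 11.60 and 12.60 in tumours. The Gapdh control signal at the 3′ end minus that at the 5′ end was 3.72, 3.23 and 2.77 (log2) in healthy skin. In tumours it was 2.15, 4.10 and 2.29. The part of cell content or of these control values in the members' differences was not tested.

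Over the 6 arrays, the non-member genes whose signal was most like the members' mean were Acin1 (Pearson r = 0.993), Krt10 (0.985), Pdzd2 (0.982), Snx16 (0.976) and Lpar3 (0.976). These r describe 6 arrays that fall into 2 groups, so a gene that merely differs between the groups scores high. Acin1, which encodes the apoptosis and RNA-processing factor acinus, had 7.03, 6.96 and 7.15 in healthy skin and 5.77, 5.21 and 5.44 in tumours.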

How the data were processed

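Intensity values of 45101 probe sets on 6 arrays were deposited as RMA signals, per the submitters' processing notes; RMA corrects background, quantile-normalizes and summarizes each probe set. The software version was not stated. The values were taken as linear because they ran from 1.45 to 33063. Signals were converted to log2 without a pseudocount, 64 control probe sets were left out and none was dropped for low signal. Symbols came from the platform annotation (34945 probe sets with 1 symbol, 932 with several, 9160 with none), and 34741 matched RefSeq by Entrez identifier with 0 symbols changed. Each gene's representative is its probe set of highest mean signal.

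The comparison used limma 3.58.1 (R 4.3.3, two-sided, no block, Benjamini-Hochberg over all 45037 probe sets, threshold 0.05), tested on simulated data. The number of arrays limits precision. Marker and pathway lists are described by counts. The members and lists were chosen with earlier results of these data known. All members are named. Of other epidermal genes, the 5 with the smallest p per direction are named. Alternatives were a dim filter (above background on at least 3 arrays), other scalings, a pseudocount of 16, a replicate block, other variance models, array weights, a hybridization-control covariate, each array left out and other gene summaries.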

Additional observations from a re-analysis of the deposited data

How the results depend on the processing

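No member was called in any alternative except Sbsn, which made 1 call with the dim filter and 1 with array weights. Over all probe sets the 2 calls became 21 with the dim filter and 22 with array weights, 1 with trend and robust options, and 0 after centring on array medians, with the pseudocount of 16 or with the hybridization-control covariate. With each array left out there were 0 calls, except 23 without tumour replicate 2, so the range was 0 to 23. The replicate number as a block gave 0 calls and left members at 0, with a smallest member adjusted p of 0.201 by limma. Same-numbered samples were not taken as pairs, since their deviations from the group means correlated at only 0.04, 0.10 and -0.01 for numbers 1, 2 and 3.

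The members' median difference of -0.10 moved to -1.04 over the 23 members that passed the dim filter, to -0.61 with the hybridization-control covariate and to -0.33 with probe sets of a gene averaged, and with each array left out it lay between -0.14 and -0.37. The other epidermal genes' median of -0.15 moved to -0.45 with the dim filter and -0.38 with the covariate, and lay between -0.05 and -0.29 with each array left out. A gene could pass the dim filter through its healthy-skin arrays alone, as Calml3 did. The medians under that filter are therefore not independent of the difference between the groups. The members without overlap stayed at 10 with other scalings, the pseudocount and other gene summaries. They were 9 of the 23 that passed the dim filter, and 10 to 12 with each array left out. With fewer arrays, groups separate more easily, and the share over all genes was not computed at these settings. The range therefore does not show how stable the count is.

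Some members with differences near 0, and Col17a1, changed sign. With the hybridization-control covariate Sfn had -0.37, Col17a1 0.39, Aqp3 -0.31, Tgm1 0.095, Tgm3 -0.30, Alox12b -0.059 and Klk8 -0.86. Ivl had 0.035 after quantile normalization and Sprr1b -0.091 with array weights. Casp14 had -0.83 averaged over its probe sets and -1.79 without those ending in _x_at or _s_at. With each array left out, the lowest and highest values of the members that changed sign lay, for Ovol1, between -0.41 and 0.035, Sfn between -0.031 and 0.43, Col17a1 between -2.07 and 0.14, Aqp3 between -0.36 and 0.84, Ivl between -0.31 and 0.052, Sprr1b between -0.056 and 0.47, Sprr3 between -0.34 and 0.32, Tgm1 between -0.22 and 0.0034, Tgm5 between -0.34 and 0.21, Abca12 between -0.22 and 0.080, Casp14 between -0.014 and 0.27, Klk5 between -0.38 and 0.17 and Klk8 between -0.37 and 0.77. The cause of these changes was not tested. Of the 33 members, 13 were above background on all 6 arrays, against 7793 of all 18193 genes, and 20 were not. Among these 20, Calml3, Krtdap, Dmkn and Serpinb5 were above it on all 3 healthy-skin arrays and fell short only on tumour arrays. The same held for Ovol1, Col17a1, Ppl and Klk5, whose groups overlapped. Dim signal limits what can be seen for those near background in both groups.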
